A study of Mus musculus with 11 samples.

Results

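Granule genes of cytotoxic lymphocytes were followed in T cells sorted from the kidneys of mice with autoimmune glomerulonephritis. They comprise granzymes A, B, K and M (Gzma, Gzmb, Gzmk, Gzmm), perforin (Prf1), the granule membrane protein Nkg7, cystatin F (Cst7), cathepsin W (Ctsw), the granule proteoglycan serglycin (Srgn) and Fas ligand (Fasl). These 10 genes were chosen by name, and all 10 were found among the 46078 genes of the deposited count table. Wild-type mice had been immunised against the neutrophil enzyme myeloperoxidase (MPO), and sheep globulin directed at basement membrane, given at low dose, set off the kidney disease. T cells were taken at 21 days and sorted into 4 groups, CD8+CD127-PD-1+ (n = 3), CD8+CD127+PD-1- (n = 3), CD4+CD127-PD-1+ (n = 2) and CD4+CD127+PD-1- (n = 3). CD127 is the alpha chain of the interleukin 7 receptor, and PD-1 is an inhibitory receptor that appears on T cells after antigen stimulation. Genotype, immunisation and globulin were common to all 4 groups, and T cells of undiseased kidneys and of mice with a blocked interleukin 7 receptor were not analysed here. The labels give no age. T cells from the kidneys of 3 mice went into each library, and replicates therefore differ as pools do, not as single animals.

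Cytotoxic lymphocytes kill by releasing the contents of lysosome-related granules at the contact with a target cell. Perforin makes pores in the target membrane and granzymes, which are serine proteases, enter and cleave proteins in the target, while serglycin packs the granzymes inside the granule. Fas ligand works by a separate route, since it engages the death receptor Fas on the target. CD8 T cells are the classical users of this machinery, and CD4 T cells can take up parts of it. Granzyme K is well known from T cells of an earlier or memory-like differentiation, while granzyme B marks strong effector cells.

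Levels are normalised counts, in CPM (counts relative to a library size that edgeR corrects with its TMM factors). A change was called when the adjusted p of edgeR's quasi-likelihood test was under 0.05, with Benjamini-Hochberg adjustment over all 16365 genes tested. All 10 genes passed the filter on low counts. Gzmm passed it through the CD8 groups alone, with 6 of 6 CD8 libraries and 0 of 5 CD4 libraries above 0.698 CPM. At its CD4 levels it was thus tested only because its CD8 levels were higher. In bulk samples fewer cells of a type and less RNA per cell cannot be told apart.

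The libraries held 10.6 to 16.1 M counts. The sort markers followed the labels, with Il7r at 13.8 to 27.2 CPM in CD127-PD-1+ libraries and 329 to 455 CPM in CD127+PD-1- libraries, and the summed T cell markers lay between 1150 and 1920 CPM everywhere. Macrophage markers moved with the sorted state: 10 of 10 were called higher in CD127-PD-1+ cells of each lineage. Their summed level was 1190 to 2260 CPM in CD8+CD127-PD-1+ and 61.3 to 125 CPM in CD8+CD127+PD-1- libraries, and 1150 to 2450 CPM in libraries of CD4+CD127-PD-1+ cells and 52.3 to 116 CPM in CD4+CD127+PD-1- libraries. Neutrophil markers were also called higher in CD8+CD127-PD-1+ cells, 5 of 5 (S100a8, S100a9, Ly6g, Retnlg and Csf3r), and 1 of 5 (Csf3r) in CD4+CD127-PD-1+ cells. Plasmacytoid dendritic cell markers moved the other way, with 4 of 7 called lower in CD8 cells (Siglech, Ly6d, Spib and Cox6a2) and 5 of 7 in CD4 cells (these and Tcf4). Of the natural killer and innate lymphoid list, 2 of 8 genes were called higher in CD8+CD127-PD-1+ cells (Fcer1g and Ncr1). In the CD4 lineage the state comparison called only Fcer1g, 1 of 8. Fcer1g is not specific to natural killer cells, and it rose in both lineages, as the macrophage markers did. The list as a whole had 6 of 8 positive log2 fold changes between the CD8 states (median 0.631). Between the CD4 states 4 of 8 were positive (median 0.031), and Ncr1 was not called there (log2 -0.30). Of the B cell list 3 of 4 (Cd79a, Cd79b and Ms4a1) were called higher in CD8+CD127-PD-1+ cells and 0 in CD4+CD127-PD-1+ cells. Of 5 tested gamma-delta and natural killer T genes, Zbtb16 was called higher in the CD127-PD-1+ state of both lineages and Tcrg-C2 in CD4 cells, and 0 kidney tubule genes were called. Over all tested genes 9.05% were called higher and 6.56% lower between the CD8 states, and 6.81% and 4.87% between the CD4 states. Counts of 1 in a list of 5 to 8 genes are not far from these shares. Mitochondrial ribosomal RNA took 35.7 to 40.8% of counts in CD8+CD127-PD-1+ and 28.6 to 31.8% in CD8+CD127+PD-1- libraries, and 30.8% in both CD4+CD127-PD-1+ and 28.1 to 30.8% in CD4+CD127+PD-1- libraries. The part of these other cells and of this RNA in the results below was not tested. Mast cell and basophil markers summed to at most 2.83 CPM, and Mcpt8 was at 0 in every group.

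CD8+CD127+PD-1- replicate 3 stood apart for these genes. It was the highest of its 3 libraries for 9 of the 10 members, all but Srgn at 254 CPM, which lay next to 255 CPM in replicate 1. Its level over the mean of the other 2 libraries was 3.31-fold for Gzma, 2.91-fold for Gzmb and 2.39-fold for Gzmk, and 1.25-fold to 1.28-fold for Cst7 and Prf1. The natural killer marker Klre1 measured 33.1, 11.2 and 70.3 CPM in CD8+CD127+PD-1- replicates 1, 2 and 3, while Ncr1 measured 2.09, 2.64 and 3.26 CPM, and Klre1 was named after its values were seen. The summed natural killer list was 201 CPM in replicate 3 and 246 and 115 CPM in replicates 1 and 2. Fcer1g and Tyrobp, which are not specific to natural killer cells, averaged 30.2 and 85 CPM in CD8+CD127+PD-1- cells, against 2.66 CPM for Ncr1. That sum therefore does not measure natural killer cells alone. The part of these cells in that library's levels was not tested, and results that rest on it are given with and without it.

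The lineage comparison gave the clearest differences: most granule genes were higher in CD8 than in CD4 cells in both sorted states. Gzmm is left out of the counts and medians of this paragraph, since it passed the filter through CD8 libraries alone, and the remaining 9 genes are counted. In CD127+PD-1- cells 7 of these 9 were called higher in CD8 cells (all but Srgn and Fasl) and Srgn was called lower, where 1.66% of all tested genes were called higher and 2.76% lower. Among CD127-PD-1+ cells 5 of the 9 were called higher in CD8 cells (Gzma, Gzmk, Prf1, Nkg7 and Cst7) and 0 lower, against 0.843% and 1.6% of all tested genes. The median log2 fold change of the 9 was 2.362 in CD127+PD-1- and 1.356 in CD127-PD-1+ cells, against 0.012 and 0.015 over all tested genes. Libraries of the lineages did not overlap, with CD8 higher, for 7 of the 9 genes in CD127+PD-1- cells and 8 of the 9 in CD127-PD-1+ cells, shares that were 10.9% and 13.5% over all tested genes. Srgn was without overlap and lower in CD8 cells in both states (11.9% and 14.3% of all tested genes). Some markers of other cells that can hold granule genes also stood higher in CD8 cells. Of the 8 natural killer and innate lymphoid genes, 1 was called higher in the CD127+PD-1- state (Klre1, which averaged 38.2 CPM in CD8 and 3.85 CPM in CD4 cells), and in the CD127-PD-1+ state 7 of 8 had positive log2 fold changes with a median of 1.142, with 0 called higher and 1 lower (Klrb1f). The summed natural killer list was 228 to 426 CPM in CD8+CD127-PD-1+ and 192 to 354 CPM in CD4+CD127-PD-1+ libraries, and 115 to 246 CPM in CD8+CD127+PD-1- and 128 to 222 CPM in CD4+CD127+PD-1- libraries. Fcer1g and Tyrobp, not specific to natural killer cells, together weigh most in these sums. In the CD127-PD-1+ state 5 of 5 neutrophil genes (median log2 2.999, S100a9 called) and 4 of 4 B cell genes (median log2 1.845, 0 called) had positive values. The part of these cells in the lineage differences was not tested. The CD127-PD-1+ result rests on 2 CD4 libraries: over all 10 genes the count of called members was 6, without CD4+CD127-PD-1+ replicate 2 it was 1 (Prf1), and without replicate 1 it was 3 (Gzmk, Gzmm and Prf1). Every member kept its direction in both fits, in which the lone library is assumed to vary like the other groups.

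**Figure D1:**
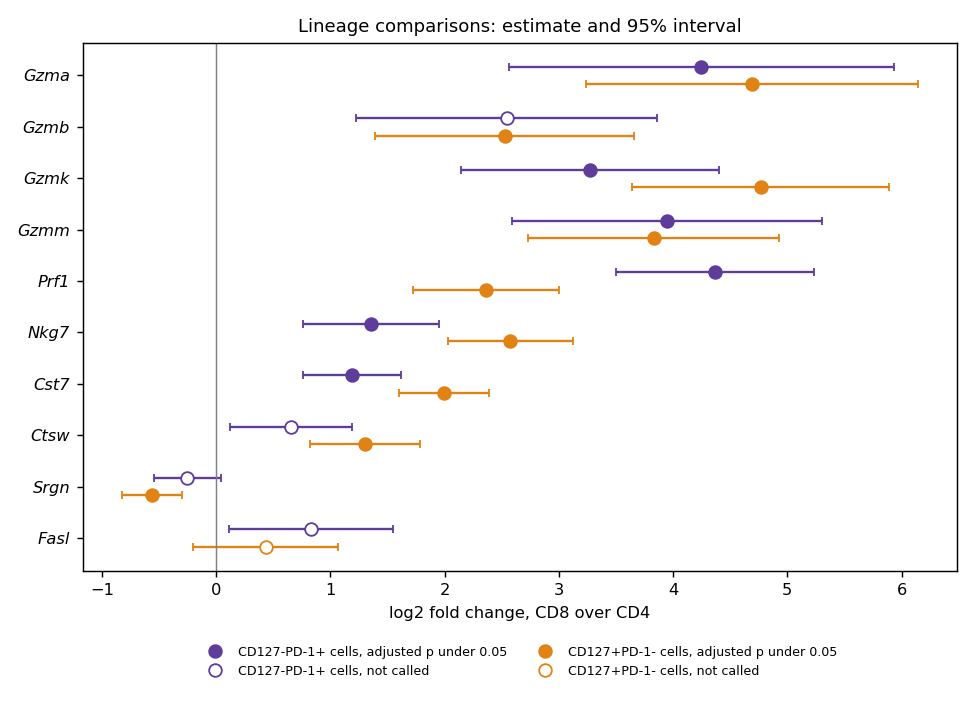
Log2 fold change of each member, CD8 over CD4, in CD127-PD-1+ and in CD127+PD-1- cells, with 95% intervals; filled points had an adjusted p under 0.05. Estimates for Gzma, Gzmk, Gzmm and Prf1 reach 3.27 or more in CD127-PD-1+ cells, and Srgn lies below 0 in both states.

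Between the sorted states the lineages gave different counts. In CD4 cells Gzmk, Nkg7 and Cst7 were called higher and Prf1 lower in CD127-PD-1+ than in CD127+PD-1- cells, which is 3 and 1 of 10, against 6.81% and 4.87% of all tested genes. In CD8 cells 0 of the 10 were called in either direction by edgeR with its default settings, where 9.05% of all tested genes were called higher and 6.56% lower. At an unadjusted p under 0.05, 3 members stood higher in CD8+CD127-PD-1+ cells (Gzmk, Srgn and Fasl), which is to be read beside 29.5% of all tested genes in either direction. Without CD8+CD127+PD-1- replicate 3 the count in CD8 cells was 4, all higher (Gzmk, Nkg7, Srgn and Fasl), and with all libraries it was 2 by DESeq2 and 1 by limma-voom. By edgeR with all libraries it was 2 without a filter (Gzmk and Fasl) and 1 (Srgn) with a stricter filter or a replicate block by title number. It stayed 0 with a block by description number and with DESeq2 size factors. The median log2 fold change of the members was 0.445 in CD4 and 0.267 in CD8 cells, against 0.023 and 0.009 over all tested genes. Libraries of the states did not overlap for 5 members higher and 1 lower in CD4 cells (21.3% and 19.4% of all tested genes) and for 1 member higher in CD8 cells (18% of all tested genes). The state comparisons and the lineage comparisons share libraries, so they are not independent of each other.

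**Figure D2:**
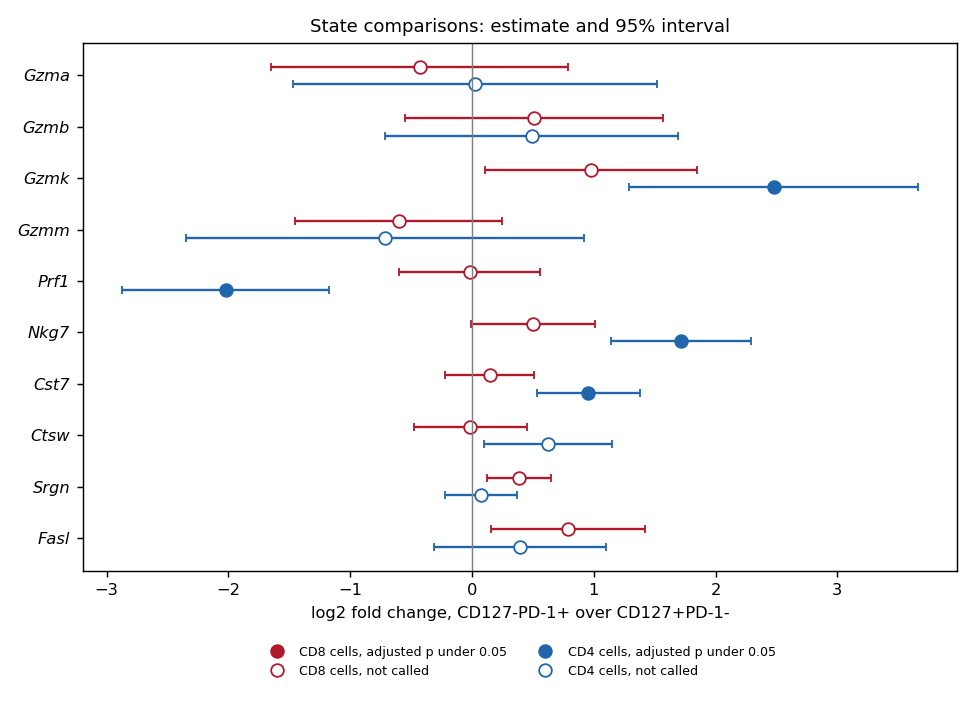
Log2 fold change of each member, CD127-PD-1+ over CD127+PD-1-, in CD8 and in CD4 cells, with 95% intervals; filled points had an adjusted p under 0.05. In CD4 cells Gzmk, Nkg7 and Cst7 lie above 0 and Prf1 below it, while in CD8 cells no member is filled.

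Among the granzymes, granzyme A, a tryptase-like protease, was higher in CD8 cells in both states, and no state difference was called. Gzma (chromosome 13, 113093825 to 113100981, minus strand, GRCm38) measured 181, 424 and 176 CPM in CD8+CD127-PD-1+ libraries and 282, 114 and 656 CPM in CD8+CD127+PD-1- libraries. In CD4 cells it measured 13.0 and 14.5 CPM in CD127-PD-1+ libraries and 7.46, 23.0 and 9.96 CPM in CD127+PD-1- libraries. Every CD8 library was above every CD4 library, and within each lineage the states overlapped. The fold of CD8 over CD4 cells was 18.9 in the CD127-PD-1+ state (log2 4.24, SE 0.77, adjusted p = 0.0143) and 25.9 in the CD127+PD-1- state (log2 4.69, SE 0.66, adjusted p = 0.00185). In the CD127-PD-1+ state it was log2 4.167 without CD4+CD127-PD-1+ replicate 1 and 4.335 without replicate 2, and the call was lost in both fits. The state difference in CD8 cells was -0.43 on the log2 scale with a 95% interval from -1.65 to 0.79, and it turned to 0.395 without CD8+CD127+PD-1- replicate 3.

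Granzyme B, the aspartate-cleaving granzyme that activates caspases, differed less between the lineages. Gzmb (chromosome 14, 56258838 to 56262260, minus strand) measured 336, 475 and 301 CPM in CD8+CD127-PD-1+ libraries and 214, 104 and 463 CPM in CD8+CD127+PD-1- libraries. CD4 cells had 32.9 and 94.4 CPM in CD127-PD-1+ libraries and 36.9, 35.1 and 64.0 CPM in CD127+PD-1- libraries. The CD8 libraries lay above all CD4 libraries here too, the nearest values being 104 CPM in a CD8 library and 94.4 CPM in a CD4 library. The fold of CD8 over CD4 cells was 5.75 in the CD127+PD-1- state (adjusted p = 0.0164) and 5.82 in the CD127-PD-1+ state, where the adjusted p of 0.052 missed the threshold. The call in the CD127+PD-1- state was lost on omission of CD4+CD127+PD-1- replicate 1 or replicate 2, at an adjusted p of 0.0866 and 0.0682, while the difference in the CD127-PD-1+ state passed under several other settings, for example DESeq2 (adjusted p = 0.00589). Neither state comparison was called, with log2 differences of 0.51 in CD8 cells (interval -0.55 to 1.57) and 0.49 in CD4 cells (interval -0.71 to 1.69). The CD8 value was 1.222 without CD8+CD127+PD-1- replicate 3 and ran from 0.131 to 1.222 over all omissions of a library. The CD4 value ran from -0.455, without CD4+CD127-PD-1+ replicate 2, to 1.061.

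Granzyme K, another tryptase-like granzyme, was the granzyme called between the CD4 states. Gzmk (chromosome 13, 113171608 to 113225908, minus strand) lies 70.6 kb from Gzma, with 0 protein-coding genes between them. It measured 11.5 and 9.86 CPM in CD4+CD127-PD-1+ libraries and 1.99, 1.38 and 2.42 CPM in CD4+CD127+PD-1- libraries, so the lowest CD127-PD-1+ pool was above every CD127+PD-1- pool. This is a 5.56-fold difference (log2 2.48, SE 0.54, adjusted p = 0.0137). The call was lost by limma-voom (adjusted p = 0.144), on omission of CD4+CD127-PD-1+ replicate 1, at an adjusted p of 0.0643, and of CD4+CD127+PD-1- replicate 2, at an adjusted p of 0.061, with log2 estimates between 2.275 and 2.673 over all omissions of a library. In CD8 cells Gzmk measured 149, 88.5 and 71.5 CPM in CD127-PD-1+ libraries and 49.8, 21.6 and 85.3 CPM in CD127+PD-1- libraries. The groups overlapped through replicate 3 of CD8+CD127+PD-1-: with it the log2 difference was 0.98 (SE 0.40, adjusted p = 0.123), and without it 1.53 (adjusted p = 0.0181). The edgeR fit of all libraries without a filter on low counts also called it (log2 0.948, adjusted p = 0.0127). CD8 cells exceeded CD4 cells 9.65-fold in the CD127-PD-1+ state (adjusted p = 0.00622) and 27.2-fold in the CD127+PD-1- state (adjusted p = 0.000393). The CD127-PD-1+ call was lost without CD4+CD127-PD-1+ replicate 2, at log2 3.178. The gene spans of Gzmk and Esm1 overlap in the annotation, and whether they share exon bases was not checked. Because no strand setting is known, reads from any shared bases cannot be told apart. In CD4 cells Esm1 averaged 4.33 CPM in the CD127-PD-1+ and 1.98 CPM in the CD127+PD-1- state, a difference that was not called (adjusted p = 0.347). Between the lineages Esm1 moved the same way as Gzmk, with 22.4 CPM in CD8 and 1.98 CPM in CD4 cells of the CD127+PD-1- state (log2 3.51, adjusted p = 0.0086) and 18.4 CPM in CD8 and 4.33 CPM in CD4 cells of the CD127-PD-1+ state (log2 2.08, adjusted p = 0.178).

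Granzyme M, a protease that prefers methionine and leucine sites, was rare. Gzmm (chromosome 10, 79689020 to 79695261, plus strand) had 27, 34 and 27 counts in CD8+CD127-PD-1+ libraries and 37, 34 and 71 counts in CD8+CD127+PD-1- libraries. In CD4 cells it had 3 and 1 counts in CD127-PD-1+ libraries and 4, 2 and 2 counts in CD127+PD-1- libraries, which is close to no signal. The ratio of CD8 to CD4 cells was 16.4 in the CD127-PD-1+ state (95% interval of the count ratio 6.2 to 61.7) and 14.8 in the CD127+PD-1- state (7.32 to 35), intervals that cover counting error only. No state difference was called by edgeR in either lineage (adjusted p = 0.341 in CD8 and 0.628 in CD4 cells). The count ratio of CD127-PD-1+ to CD127+PD-1- cells was 0.656 in CD8 cells (95% interval 0.497 to 0.862). In CD4 cells it was 0.592 (0.13 to 2.21), and these intervals leave out the spread between pools too.

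Perforin, the pore former without which granzymes do not enter the target, was lower in CD127-PD-1+ than in CD127+PD-1- cells of the CD4 lineage, and no state difference was called in CD8 cells. Prf1 (chromosome 10, 61297833 to 61304680, plus strand) measured 1.61 and 0.973 CPM in CD4+CD127-PD-1+ libraries and 6.22, 6.60 and 2.88 CPM in CD4+CD127+PD-1- libraries. The groups did not overlap, and the level in CD4+CD127-PD-1+ cells was 0.246 times that in CD4+CD127+PD-1- cells (log2 -2.02, SE 0.39, adjusted p = 0.0077). Without CD4+CD127-PD-1+ replicate 2 the adjusted p was 0.0617 and the log2 difference -1.692. In CD8 cells Prf1 measured 33.6, 24.3 and 22.4 CPM in CD127-PD-1+ libraries and 25.6, 24.0 and 31.8 CPM in CD127+PD-1- libraries, which overlapped, with a 95% interval of the log2 difference from -0.60 to 0.56. The lineages differed 20.6-fold in the CD127-PD-1+ state (log2 4.36, SE 0.40, adjusted p = 0.000124) and 5.14-fold in the CD127+PD-1- state (log2 2.36, SE 0.29, adjusted p = 0.000876).

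**Figure D3:**
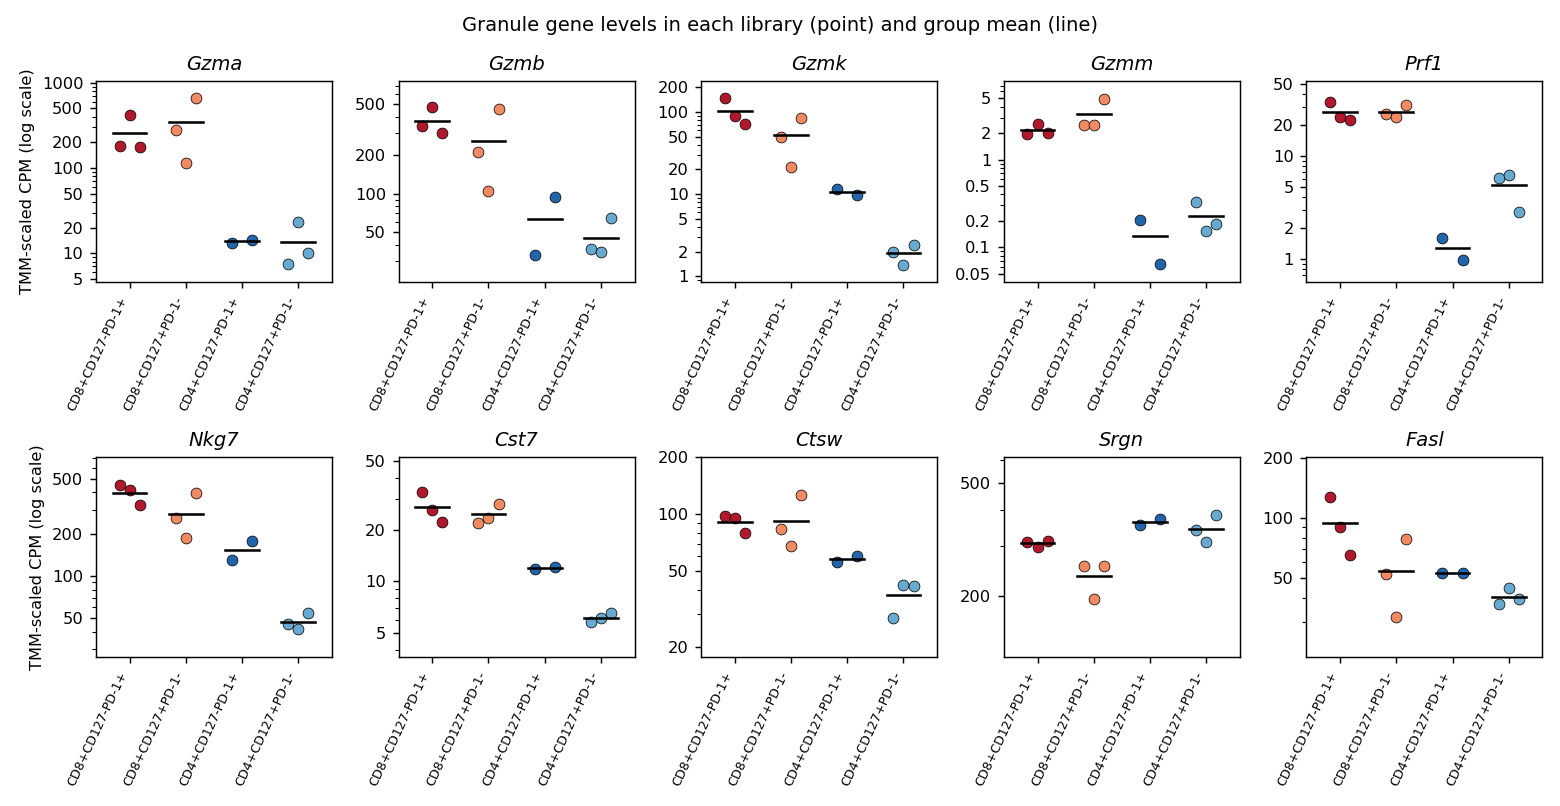
TMM-scaled CPM of each member in every library (points, log axis with its own range in each panel) and the group mean (line), CD8 groups in reds and CD4 groups in blues. Prf1 is at 0.973 to 1.61 CPM in CD4+CD127-PD-1+ libraries, below 2.88 to 6.60 CPM in CD4+CD127+PD-1- libraries, while Gzmk, Nkg7 and Cst7 lie the other way round in the same libraries.

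Nkg7, a membrane protein of cytotoxic granules that takes part in their release, had the smallest adjusted p of the 10 members between the CD4 states. Nkg7 (chromosome 7, 43437073 to 43438249, plus strand) measured 131 and 178 CPM in CD4+CD127-PD-1+ libraries and 45.0, 41.9 and 54.4 CPM in CD4+CD127+PD-1- libraries. It rose 3.28-fold (log2 1.72, SE 0.26, adjusted p = 0.00222), and the call was kept whichever library was left out, with log2 estimates from 1.48 to 1.923. CD8 cells had 449, 412 and 326 CPM in CD127-PD-1+ libraries and 259, 189 and 393 CPM in CD127+PD-1- libraries. These overlapped through CD8+CD127+PD-1- replicate 3, and the log2 difference was 0.50 (SE 0.23, adjusted p = 0.181) with that library and 0.823 (adjusted p = 0.0179) without it. The excess of CD8 over CD4 cells was 2.56-fold in the CD127-PD-1+ state (adjusted p = 0.023) and 5.95-fold in the CD127+PD-1- state (adjusted p = 0.000175). The CD127-PD-1+ call was lost on omission of either CD4 library or of CD8+CD127-PD-1+ replicate 1 or 2 (adjusted p up to 0.155).

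Cystatin F and cathepsin W are proteins of the same compartment, cystatin F being an inhibitor of the cathepsins that activate granzymes and cathepsin W a papain-like cysteine protease found in cytotoxic lymphocytes. Cst7 (chromosome 2, 150570415 to 150578944, plus strand) measured 11.8 and 12.1 CPM in CD4+CD127-PD-1+ libraries and 5.80, 6.14 and 6.51 CPM in CD4+CD127+PD-1- libraries. It rose 1.94-fold in CD4 cells (log2 0.95, SE 0.20, adjusted p = 0.0101), and the call held in each fit that left out a library. In CD8 cells Cst7 ran at 33.2, 26.1 and 22.2 CPM in CD127-PD-1+ libraries and 21.8, 23.4 and 28.3 CPM in CD127+PD-1- libraries, which overlapped (log2 0.15, interval -0.22 to 0.51). Cst7 is also expressed by activated macrophages, whose markers moved with the state in both lineages as given above, and their part in the CD4 difference was not tested. Ctsw (chromosome 19, 5465043 to 5468507, minus strand) measured 55.9 and 60.0 CPM in CD4+CD127-PD-1+ libraries and 28.3, 42.3 and 42.1 CPM in CD4+CD127+PD-1- libraries. The groups did not overlap, yet the difference missed the threshold (log2 0.63, SE 0.24, adjusted p = 0.12). In CD8 cells Ctsw was 98.0, 96.2 and 80.1 CPM in CD127-PD-1+ and 83.3, 68.2 and 126 CPM in CD127+PD-1- libraries. CD8 exceeded CD4 cells 2.46-fold for Ctsw (adjusted p = 0.00523) and 3.98-fold for Cst7 (adjusted p = 0.000107) in the CD127+PD-1- state, and 1.58-fold (adjusted p = 0.256) and 2.28-fold (adjusted p = 0.00819) in the CD127-PD-1+ state. The Cst7 call in the CD127-PD-1+ state was lost without either CD4+CD127-PD-1+ library (adjusted p = 0.058 and 0.0757). The Ctsw locus overlaps Fibp, which stayed between 8.99 and 9.36 CPM in the 4 group means.

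Serglycin, the packing proteoglycan, was the member that was lower in CD8 than in CD4 cells in both states, with a call in the CD127+PD-1- state. Srgn (chromosome 10, 62493833 to 62527451, minus strand) measured 310, 297 and 312 CPM in CD8+CD127-PD-1+ libraries and 255, 194 and 254 CPM in CD8+CD127+PD-1- libraries. CD4 cells had 355 and 373 CPM in CD127-PD-1+ libraries and 341, 309 and 386 CPM in CD127+PD-1- libraries. The CD8 libraries lay below the CD4 libraries within each state, and in the CD127+PD-1- state the ratio was 0.678 (log2 -0.56, SE 0.12, adjusted p = 0.0217). That call was lost when any of CD4+CD127+PD-1- replicates 1 and 3 or CD8+CD127+PD-1- replicate 2 was left out, with adjusted p of 0.0822, 0.119 and 0.0624. In the CD127-PD-1+ state the ratio was 0.84 (adjusted p = 0.466). Between the CD8 states all 3 CD127-PD-1+ libraries were above all 3 CD127+PD-1- libraries, by 1.31-fold, with an adjusted p of 0.0502 that fell just outside the threshold and passed by DESeq2 (adjusted p = 0.0353). Serglycin is made by myeloid cells as well, and the part of macrophages, whose summed markers differed between the states, was not tested.

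Fas ligand was called in no comparison by edgeR with all libraries and the default filter on low counts. Between the CD8 states it was called higher in CD127-PD-1+ cells by DESeq2 (adjusted p = 0.0404) and by edgeR without a filter (adjusted p = 0.0115). The edgeR fit without a filter also called it higher in CD8 than in CD4 cells of the CD127-PD-1+ state (adjusted p = 0.0481). The values below are from the default fit unless a setting is named. Fasl (chromosome 1, 161780689 to 161788495, minus strand) measured 127.2, 90.6 and 65.2 CPM in CD8+CD127-PD-1+ libraries and 52.6, 32.1 and 78.9 CPM in CD8+CD127+PD-1- libraries. It measured 53.3 and 52.9 CPM in CD4+CD127-PD-1+ libraries and 37.0, 44.5 and 39.5 CPM in CD4+CD127+PD-1- libraries. CD8 and CD4 cells overlapped in the CD127+PD-1- state and did not in the CD127-PD-1+ state, and neither difference was called (1.35-fold, adjusted p = 0.492, and 1.78-fold, adjusted p = 0.292). Between the CD8 states the difference was 1.73-fold (log2 0.79, SE 0.29, adjusted p = 0.0884), and without CD8+CD127+PD-1- replicate 3 it was 1.155 on the log2 scale (adjusted p = 0.0153). In CD4 cells it was 1.32-fold (adjusted p = 0.487).

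Whether the state difference itself depended on the lineage was tested with an interaction term, the CD8 state change minus the CD4 state change. None of the 10 members was called by edgeR with the default filter on low counts, where 0% of all tested genes were called higher and 0.00611% (1 gene) lower. At an unadjusted p under 0.05 there were 4 members, Prf1 with a larger value in CD8 cells (log2 2.00, SE 0.47) and Gzmk, Nkg7 and Cst7 with a smaller one (log2 -1.50, -1.22 and -0.81), against 5.48% of all tested genes. The adjusted p was 0.545 for Prf1, 0.676 for Nkg7, 0.752 for Cst7 and 0.887 for Gzmk. By DESeq2 Prf1 had an adjusted p of 0.0162. The edgeR fit without a filter called Prf1 (log2 1.994, adjusted p = 0.0126) and Nkg7 (log2 -1.228, adjusted p = 0.0152). That fit called 58 genes higher and 27 lower over all genes. So the edgeR fit with the default filter did not show that the state differences of CD4 and CD8 cells are unequal, and the result for Prf1 and Nkg7 depended on the setting.

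The mix of granzymes was described per length, as CPM per kb of exon, to lessen the effect of gene length. The length joins all annotated exons of a gene. Whether reads covered these exons evenly was not checked, so comparisons of level between genes are approximate. This description was chosen after the values were seen and carries no test. Gzmk made up 20.6, 7.79 and 11.8% of the 4-granzyme sum in CD8+CD127-PD-1+ libraries and 7.67, 7.67 and 5.91% in CD8+CD127+PD-1- libraries. It made up 18.7 and 8.14% in CD4+CD127-PD-1+ libraries and 4.12, 2.06 and 3.09% in CD4+CD127+PD-1- libraries. Shares of Gzmk in CD127-PD-1+ libraries were above those of their lineage's CD127+PD-1- libraries without overlap, by a narrow margin in CD8 cells (7.79 against 7.67%). Gzma shares ran the other way in CD8 cells, at 34.4, 51.5 and 40% in CD127-PD-1+ libraries and 60.1, 55.7 and 62.7% in CD127+PD-1- libraries, and Gzmb shares were 44.7, 40.5 and 47.9% against 31.9, 35.8 and 31.1%. CD8+CD127+PD-1- replicate 3, which had the highest levels of its group, had a mix near that of the other 2 libraries. In CD4 cells the Gzma share was 29.3 and 16.5% in CD127-PD-1+ and 21.3, 47.2 and 17.6% in CD127+PD-1- libraries, which overlapped. The ratio of Gzmk to Gzma per kb was 0.598, 0.151 and 0.294 in CD8+CD127-PD-1+ libraries and 0.128, 0.138 and 0.0942 in CD8+CD127+PD-1- libraries, and 0.638 and 0.494 in CD4+CD127-PD-1+ and 0.193, 0.0436 and 0.176 in CD4+CD127+PD-1- libraries.

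**Figure D4:**
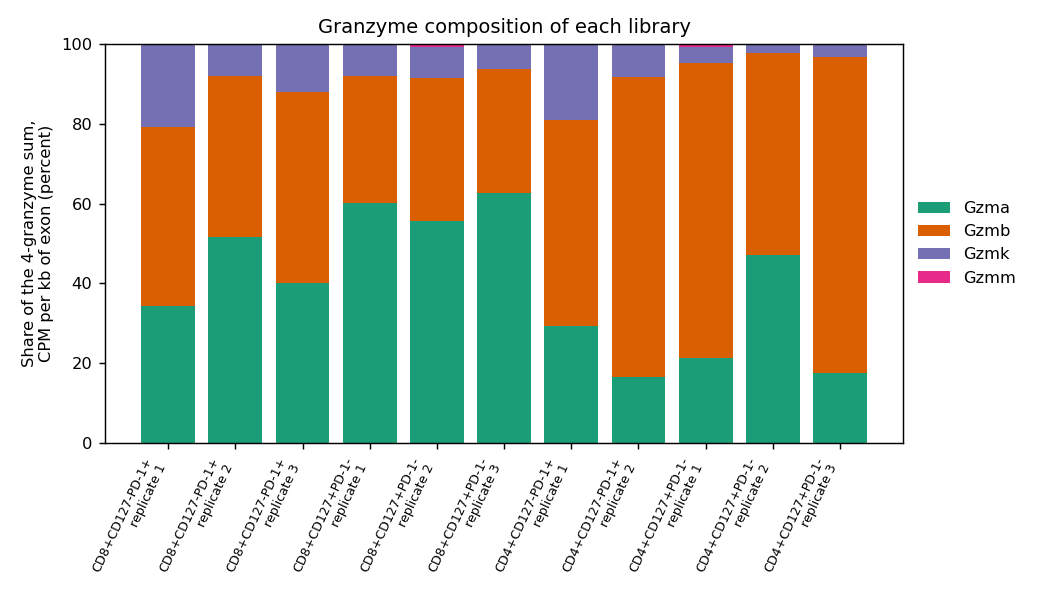
Share of Gzma, Gzmb, Gzmk and Gzmm in the sum of the 4 granzymes, in CPM per kb of exon, as a percentage in each library. The Gzmk share is 7.79 to 20.6% in CD8+CD127-PD-1+ and 8.14 to 18.7% in CD4+CD127-PD-1+ libraries, above the libraries of the CD127+PD-1- state in the same lineage.

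Over the 10 genes, levels per kb of exon ranged widely within a group, and their ranking is approximate for the same reason. In CD8+CD127-PD-1+ cells Nkg7 had the highest mean level (433 ± 69.2 CPM per kb, SD, n = 3), Gzma and Gzmb were alike within their spread (259 ± 141 and 258 ± 64.3), and Prf1 stood at 10.4 ± 2.32 CPM per kb. In CD4+CD127+PD-1- cells Srgn was the highest at 157 ± 17.8 CPM per kb and Prf1 stood at 2.03 ± 0.791 CPM per kb (n = 3). The spread between pools also differed by gene: in CD8+CD127+PD-1- cells the highest library was 5.77 times the lowest for Gzma, 4.44 times for Gzmb and 3.94 times for Gzmk, but 1.33 times for Prf1 and 1.3 times for Cst7.

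Promoter sequences of Gzma, Gzmk, Gzmb, Prf1 and Nkg7 are shown, Gzma and Gzmk because they are neighbours on the chromosome, and the others as the remaining abundant granzyme, the pore former and the member with the smallest p between the CD4 states. RefSeq windows of the 250 bases before the annotated start (GRCm38.p6) were found for 9 of the 10 members, Ctsw being named only. They were searched on both strands for TGTGGT, the core letters bound by RUNX factors, for TGANTCA of AP-1 and for GGTGTGA of the T-box factors T-bet and Eomes, and no matches overlapped. TGTGGT was present for 7 of the 9 members and in the windows of 15.9% of 27025 genes. GGTGTGA was present for 3 of the 9 (Nkg7, Gzmk and Gzmm) and for 3.84% of all genes, and TGANTCA for 1 of the 9 (Gzmb) and for 7.82%. Gzmm and Srgn have more than 1 window and so more than 1 chance of a match. The windows below give the gene strand, 5′ to 3′, with the matched letters in capitals.
Gzma, chr13:113100982-113101231, strand minus: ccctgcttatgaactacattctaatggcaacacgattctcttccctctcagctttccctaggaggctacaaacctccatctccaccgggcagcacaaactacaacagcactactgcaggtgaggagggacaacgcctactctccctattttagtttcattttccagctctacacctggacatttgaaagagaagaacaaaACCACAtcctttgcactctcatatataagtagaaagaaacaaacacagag
Gzmk, chr13:113180966-113181215, strand minus: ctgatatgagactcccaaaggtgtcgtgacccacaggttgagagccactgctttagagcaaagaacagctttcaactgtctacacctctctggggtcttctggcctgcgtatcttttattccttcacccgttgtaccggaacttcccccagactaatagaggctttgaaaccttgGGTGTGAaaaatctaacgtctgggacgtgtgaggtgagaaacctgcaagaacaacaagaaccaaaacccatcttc
Gzmb, chr14:56262335-56262584, strand minus: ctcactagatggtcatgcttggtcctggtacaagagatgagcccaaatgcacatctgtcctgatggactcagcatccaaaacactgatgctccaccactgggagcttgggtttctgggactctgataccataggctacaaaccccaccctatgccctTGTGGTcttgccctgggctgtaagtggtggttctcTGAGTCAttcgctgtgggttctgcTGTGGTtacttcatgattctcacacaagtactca
Prf1, chr10:61297586-61297835, strand plus: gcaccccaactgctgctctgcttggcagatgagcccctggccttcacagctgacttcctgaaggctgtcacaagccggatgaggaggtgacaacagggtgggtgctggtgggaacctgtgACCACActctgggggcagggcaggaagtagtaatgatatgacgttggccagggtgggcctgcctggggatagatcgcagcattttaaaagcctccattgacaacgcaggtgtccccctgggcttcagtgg
Nkg7, chr7:43436888-43437137, strand plus: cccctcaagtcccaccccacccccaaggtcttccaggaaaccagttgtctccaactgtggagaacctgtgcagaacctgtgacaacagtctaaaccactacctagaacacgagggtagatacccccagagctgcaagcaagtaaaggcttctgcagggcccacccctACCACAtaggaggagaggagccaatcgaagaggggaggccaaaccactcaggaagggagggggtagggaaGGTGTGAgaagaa
The Gzma window holds the RUNX letters on the opposite strand, as ACCACA, 50 bases before the start, and the neighbouring Gzmk window holds none and has the T-box letters at 75 bases. Gzmb has the RUNX letters at 93 and 34 bases and the AP-1 letters at 58 bases, between them. Prf1 has the RUNX letters at 130 bases, and Nkg7 has them at 83 bases with the T-box letters at 13 bases. Distances count from the RefSeq starts, which for some genes differ from the gene positions given above, taken from GENCODE M21. The Gzmk window lies inside the GENCODE span of its gene, and the Nkg7 and Prf1 windows run past the GENCODE starts. The matches are a description of the letters and not of binding.

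Among genes that act on the granzymes, cathepsin C was higher in the CD127-PD-1+ cells of both lineages. Of 8 genes for granzyme processing and inhibition, 2 were called higher and 1 lower in CD8+CD127-PD-1+ than in CD8+CD127+PD-1- cells, and 1 higher and 1 lower in the same CD4 comparison. These and the counts of the lists that follow are to be read beside the shares of all tested genes, 9.05% higher and 6.56% lower between the CD8 states and 6.81% higher and 4.87% lower between the CD4 states, from which counts of 1 in a list of 8 to 10 genes are not far. Ctsc, cathepsin C, which trims granzymes into their active form, measured 310, 468 and 535 CPM in CD8+CD127-PD-1+ and 118, 106 and 107 CPM in CD8+CD127+PD-1- libraries (log2 1.99, adjusted p = 0.000177), and 431 and 268 CPM in CD4+CD127-PD-1+ and 84.0, 71.3 and 80.1 CPM in CD4+CD127+PD-1- libraries (log2 2.15, adjusted p = 0.000295). Ctsl, a lysosomal cathepsin, fell in both lineages (log2 -1.78, adjusted p = 0.00466 in CD8, and log2 -2.05, adjusted p = 0.00778 in CD4 cells), the CD4 call being lost, at an adjusted p of 0.0597, on omission of CD4+CD127-PD-1+ replicate 2. The serine protease inhibitor gene Serpinb9b was higher in CD8+CD127-PD-1+ cells (log2 2.23, adjusted p = 0.0353) at levels of 1.9 to 3.06 CPM there and 0.0733 to 1.01 CPM in CD8+CD127+PD-1- cells, a call lost on omission of any of the 3 CD8+CD127-PD-1+ libraries, of CD8+CD127+PD-1- replicate 2 or 3 or of CD4+CD127+PD-1- replicate 1 (adjusted p from 0.0501 to 0.121), with the compared groups alone (0.0608) and with a replicate block by description number (0.0846). Serpinb9, an inhibitor of granzyme B, was not called (log2 0.65, adjusted p = 0.16 in CD8 cells). Ctsc is abundant in macrophages too, and their part was not tested. Of 6 further granzyme genes 1 was tested, Gzmc, which was at 3.82 CPM or less and not called.

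In granule transport and release, 15 of 16 listed genes were tested, and 3 were called higher and 1 lower in CD8 cells, and 3 higher and 0 lower in CD4 cells. The genes called higher encode lysosome membrane proteins. They were Lamp2 (log2 1.36, adjusted p = 0.000749), Lamp1 (log2 0.68, adjusted p = 0.0372) and Cd63 (log2 1.58, adjusted p = 0.0475) in CD8 cells, and Cd63 (log2 2.82, adjusted p = 0.00785), Lamp2 (log2 0.91, adjusted p = 0.0156) and Lamp1 (log2 0.84, adjusted p = 0.0295) in CD4 cells. Sytl1, which links Rab27 to granules, fell in CD8 cells (log2 -1.38, adjusted p = 0.0139). The CD8 call for Lamp1 was lost on omission of CD8+CD127-PD-1+ replicate 2 or 3, CD8+CD127+PD-1- replicate 1 or 2 or CD4+CD127+PD-1- replicate 1 or 2 (adjusted p up to 0.149), and that for Cd63 on omission of any library but replicate 1 of either CD8 group (adjusted p up to 0.162). The CD4 call for Lamp1 was lost on omission of any of the 5 CD4 libraries (adjusted p up to 0.165). Replicate blocks by title and description number ended the CD8 calls for Lamp1 (adjusted p = 0.0558 and 0.092) and Cd63 (adjusted p = 0.0677 and 0.146), and the block by description number ended the CD4 call for Lamp1 (adjusted p = 0.0652). The Lamp2 call in CD4 cells was lost on omission of CD4+CD127-PD-1+ replicate 1, at an adjusted p of 0.149, or of CD4+CD127+PD-1- replicate 2, at an adjusted p of 0.0607. The release factors Unc13d (log2 -0.02 in CD8 and 0.28 in CD4 cells) and Rab27a (0.36 and 0.02) were not called. Lamp1, Lamp2 and Cd63 are lysosomal genes of many cells, macrophages included, and that part was not tested.

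On the death receptor side, 1 of 8 genes was called higher and 2 lower between the CD8 states, and 1 higher and 1 lower between the CD4 states. Tnfrsf10b, the mouse receptor for TRAIL, fell to 2.34, 2.17 and 3.27 CPM in CD8+CD127-PD-1+ libraries, against 14.3, 19.6 and 15.2 CPM in CD8+CD127+PD-1- libraries (log2 -2.66, adjusted p = 3.22e-05), and fell in CD4 cells as well (log2 -1.23, adjusted p = 0.00517). Fas, the receptor of Fas ligand, fell in CD8 cells (log2 -1.39, adjusted p = 0.00698), where Tnf rose (log2 0.96, adjusted p = 0.00207). Tnfsf10, which encodes TRAIL, rose in CD4 cells (log2 1.11, adjusted p = 0.0133), a call lost on omission of CD4+CD127-PD-1+ replicate 1, at an adjusted p of 0.104.

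Of 10 transcription factors of cytotoxic and memory T cells, 2 were called higher and 2 lower in each lineage. Tcf7 and Id3, factors of naive and memory cells, fell in CD8 cells (log2 -2.05, adjusted p = 2.12e-05, and log2 -1.70, adjusted p = 0.00236) and in CD4 cells (log2 -1.95, adjusted p = 0.000122, and log2 -2.07, adjusted p = 0.00391). Zeb2, a factor of terminal effector cells that macrophages also express, rose in CD8 cells (log2 1.44, adjusted p = 0.00766) and CD4 cells (log2 1.31, adjusted p = 0.0236). Prdm1, which encodes Blimp-1, rose in CD8 cells (log2 1.45, adjusted p = 0.00204), and Tbx21, which encodes T-bet, rose in CD4 cells (log2 0.77, adjusted p = 0.0356). The CD4 call for Tbx21 was lost without any 1 of the 5 CD4 libraries (adjusted p up to 0.134), and that for Zeb2 on omission of CD4+CD127-PD-1+ replicate 1 or CD4+CD127+PD-1- replicate 2 or 3 (adjusted p up to 0.199).

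Between the lineages Eomes, a T-box factor that drives perforin and granzyme genes in CD8 cells, was the 1 of the 10 listed transcription factors that was called. It measured 81.3, 45.4 and 38.7 CPM in CD8+CD127-PD-1+ and 2.35 and 0.973 CPM in CD4+CD127-PD-1+ libraries, and 46.7, 44.4 and 57.2 CPM in CD8+CD127+PD-1- and 0.829, 1.46 and 0.93 CPM in CD4+CD127+PD-1- libraries. The log2 differences were 5.05 (adjusted p = 9.55e-05) and 5.50 (adjusted p = 1.87e-05). Runx3, which also acts in CD8 cells, was not called (log2 0.62 in each state, adjusted p = 0.243 in CD127-PD-1+ and 0.112 in CD127+PD-1- cells). Eomes, Runx3 and the genes that follow were named for this comparison after their values were seen. In the CD127-PD-1+ state 0.843% of all tested genes were called higher in CD8 cells and 1.6% lower. These shares were 1.66% and 2.76% in the CD127+PD-1- state. Of the other pathway lists, Serpinb9b was called higher and Sytl1 and Tnfrsf10b lower in CD8 cells of the CD127-PD-1+ state. In the CD127+PD-1- state Serpinb6b was called higher and Tnf and Cflar lower. Some other settings ended the calls for Serpinb9b, Sytl1, Serpinb6b and Cflar. As given above, Serpinb9b was tested mainly through its CD8+CD127-PD-1+ libraries, so its call here is a description only.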

How the data were processed

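RNA was measured in 11 libraries of kidney T cells, each from a pool of 3 mice. Per the labels' protocols, 2 ng of RNA was amplified isothermally from single primers and sequenced as 75-base single reads, and another sample of CD4+CD127-PD-1+ cells did not pass quality control. The deposited values are raw read counts per gene. STAR, featureCounts and GRCm38 are named per the submitters' processing notes; for versions and strandedness, the sources used here give nothing. 1 unlabelled column of counts was not used.

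The counts went into edgeR 4.0.16 (R 4.3.3) with the filterByExpr defaults (minimum count 10), TMM scaling and a quasi-likelihood fit of the 4 group means over all 11 libraries. Comparisons were CD127-PD-1+ minus CD127+PD-1- in each lineage (the state comparisons), CD8 minus CD4 in each state (the lineage comparisons) and their interaction. The SE is the estimate over the square root of F, and intervals use the t quantile at 95%. The pipeline was tested on simulated data. Alternatives used limma 3.58.1 (voom) and DESeq2 1.42.0, other filters, replicate blocks and omission of each library.

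The 10 members and the gene lists were chosen with earlier results of these data known. Besides the members and sort markers, up to 4 called genes per pathway list and state comparison were named, smallest p first, with at most 2 uncalled ones as values, and up to 2 genes of each list of other cells; names beyond these were chosen after their values were seen. For likeness, the 3 genes with the highest correlation to Gzma, Gzmb, Gzmk and Prf1 were taken. Gene positions and exon lengths came from GENCODE M21, which held 45143 of the 46078 identifiers.

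Libraries of a group differed beyond sampling noise, so none was a repeat deposit. The labels give separate replicate numbers in titles and descriptions. Same-numbered libraries of the CD127+PD-1- groups deviated together (correlations 0.208, 0.147 and 0.318, by either numbering), which by the rule used pairs them there. Blocking on the number changed no member call in that comparison. P-values measure the spread between pools, and intervals on counts and count ratios cover counting error only. Reads of closely related granzyme genes and of overlapping genes may be assigned uncertainly.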

Additional observations from a re-analysis of the deposited data

How the results depend on the processing

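Of 934 values of single members under an alternative, 856 kept their direction and side of the threshold, 27 gained a call, 22 lost it and 29 changed sign. The 2 libraries of CD4+CD127-PD-1+ cells limit every comparison with that group.

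The count of called members between the CD8 states was 0, and became 2 by DESeq2, 1 by limma-voom, 2 without a filter, 1 with a stricter filter, 1 with a replicate block by title number and 0 by description number; leaving out a library gave 0 to 4, with 4 (Gzmk, Nkg7, Srgn and Fasl, all higher) without CD8+CD127+PD-1- replicate 3. The interaction count was 0 and became 1 by DESeq2 (Prf1) and 2 without a filter (Prf1 higher, Nkg7 lower). In the lineage comparison of CD127-PD-1+ cells the count was 6 and ran from 1 to 7 when a library was left out, and was 6 and 7 with the replicate blocks. The CD4 state count (4) ran from 3 to 5 and the lineage count in CD127+PD-1- cells (9) from 7 to 9, and the replicate blocks gave 4 and 9. Both lineage counts include Gzmm, which passed the default filter through CD8 libraries alone. Without Gzmm 5 of 9 members were called higher in CD8 cells of the CD127-PD-1+ state. In the CD127+PD-1- state 7 of 9 were called higher and 1 lower. Apart from Srgn between the CD8 states (adjusted p = 0.0297 by title number) and Gzmb between lineages in CD127-PD-1+ cells (adjusted p = 0.00255 by description number), a block changed no member call. In the other comparisons same-numbered pairs correlated at 0.113, -0.052 and -0.157 between the CD8 states, 0.272 and -0.088 between the CD4 states and -0.04 and 0.127 between lineages in CD127-PD-1+ cells by title number, and at 0.113 and 0.159, 0.088 and 0.325, and 0.127 by description number, which gives at most 2 pairs a comparison there.

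The values that changed sign belonged to differences that were not called. In the CD8 state comparison Ctsw became 0.025 by limma-voom, 0.021 with the title block and 0.08 with the description block, and Prf1 0.106 with the description block. In the CD4 state comparison Gzma became -0.003 without a filter and -0.23 with the description block, and the Gzmb interaction became -0.031 with the title block. With a library left out, the CD8 state value ran from -0.972 to 0.395 for Gzma, -0.217 to 0.111 for Prf1, -0.194 to 0.272 for Ctsw and -0.021 to 0.274 for Cst7; the CD4 state value from -0.264 to 0.662 for Gzma and -0.455 to 1.061 for Gzmb; the interaction from -1.091 to 0.372 for Gzma, -0.554 to 0.97 for Gzmb and -0.463 to 1.046 for Gzmm. The cause was not tested.

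Over all genes, the CD127-PD-1+ lineage comparison called 138 higher and 262 lower, against 30 and 96 without CD4+CD127-PD-1+ replicate 2, 71 and 143 with the compared groups alone, 292 and 425 by DESeq2 and 348 and 443 without a filter. The CD127+PD-1- lineage comparison called 271 and 452, against 527 and 665 by DESeq2 and 578 and 637 without a filter. The interaction called 0 and 1, against 40 and 20 by DESeq2 and 58 and 27 without a filter. The same settings were run for the pathway lists, a choice made after seeing the data, and calls lost with a library left out or under a block stand beside the genes. With the compared groups alone the CD8 calls for Lamp1 (adjusted p = 0.0678) and Cd63 (0.0987) were lost too, as were those for Lamp1 by limma-voom (0.0503) and Cd63 with DESeq2 size factors (0.0514). With a library left out, called genes between the CD8 states ran from 2 to 5 for processing and inhibition and 2 to 5 for transport and release, and between the CD4 states from 1 to 2 and 1 to 3, with 1 to 2 for the death receptor list and 2 to 5 for the transcription factors.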

Other observations

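The genes most like 4 of the members across the 11 libraries are given as a description over 6715 genes, by Pearson correlation of log2 CPM, where the points share the difference between CD8 and CD4 cells. Gzma followed H2-Q10 (0.966), Crtam (0.96) and Klre1 (0.96). Gzmb followed Serpinb6b (0.986), an inhibitor of serine proteases, then Ppm1g (0.963) and Trim37 (0.961). Gzmk followed the chemokine gene Ccl5 (0.966), Baiap3 (0.961) and Chsy1 (0.958). Prf1 followed the CD8 chains Cd8b1 (0.977) and Cd8a (0.953) and the lipid flippase gene Atp8b4 (0.966).

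Among the members themselves Gzmk ran with Nkg7 (0.986) and Cst7 (0.977) more closely than with its neighbour Gzma (0.88), and Prf1 ran with Gzmm (0.932) and Gzma (0.871) more closely than with Nkg7 (0.607). Srgn was negatively correlated with every other member but Fasl (0.062), from -0.393 with Gzmb to -0.749 with Gzmm. Here too the points of the 11 libraries share the difference between CD8 and CD4 cells, which ran opposite ways for Srgn and the other members. Within CD8+CD127+PD-1- replicates 1, 2 and 3 Srgn measured 255, 194 and 254 CPM and Gzmb 214, 104 and 463 CPM, both lowest in replicate 2.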
